A study of Caenorhabditis elegans with 2 samples.

Results

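The muscle regulator genes hlh-1, unc-120, hnd-1 and mef-2 were examined by name, 4 of the 19973 nuclear protein-coding genes of the annotation. For each gene, every summit of chromatin bound by tagged DAF-16 was taken from 5000 bp upstream of the gene to 500 bp past its end. DAF-16, the FOXO transcription factor that acts below the insulin receptor DAF-2, was precipitated through its GFP tag and the recovered DNA was sequenced (ChIP-seq). The animals were whole L4 hermaphrodites of strain ZM7247, taken 54 h after synchronisation as starved L1 larvae. They carried the daf-16(mu86) and daf-2(e1370) alleles and the transgene hpSi4 (Pmyo-3 GFP::daf-16a), in which the myo-3 promoter, active in body wall muscle, drives the tagged factor. Another label places the GFP, with FLAG, C-terminally, which differs from the order in the genotype. The 2 biological replicates formed 1 group, and no other genotype or control library was analysed here. The values are therefore described, without a test between groups.

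Body wall muscle of the worm is specified in the embryo by a small set of transcription factors that switch one another and the genes of the sarcomere on. HLH-1 is the homologue of MyoD, a basic helix-loop-helix (bHLH) protein that binds E-boxes. UNC-120 is the homologue of serum response factor, a MADS-box protein, and HND-1 is a bHLH protein of the HAND family, and both act together with HLH-1 in muscle specification. MEF-2 is the worm's MEF2 protein, also a MADS-box factor. In vertebrates MEF2 proteins work with MyoD, whereas in the worm body wall muscle forms without mef-2, and the gene is known for retrograde signalling at the neuromuscular junction and for the control of chemoreceptor genes. The name of fate factor thus fits mef-2 by its family rather than by its known role in the worm.

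Against the whole pooled list, DAF-16 summits of high rank lay at hlh-1 and mef-2. By contrast, unc-120 had weak candidates alone and hnd-1 had none in the pooled list. The sequence at the hlh-1 promoter is shown because it is the highest-ranked summit at the promoter of any of the 4 genes. The second sequence surrounds the strongest summit inside hlh-1, in its long intron. Both are taken from the reference assembly WBcel235 (RefSeq copy, the assembly that ce11 names), on the plus strand, which is the strand of hlh-1. Each run has 299 bases with the summit at its middle base. The promoter run is chrII:4518352-4518650 and the intron run is chrII:4520141-4520439. Capitals mark every match to the searched motifs, namely the GATA site TGATAG read on the minus strand and AGAGACG in the promoter, and the E-box CAGCTG and overlapping copies of GAGAGA in the intron. Of these only AGAGACG lies within 100 bp of its summit and is counted in the motif shares given further on.
hlh-1 promoter: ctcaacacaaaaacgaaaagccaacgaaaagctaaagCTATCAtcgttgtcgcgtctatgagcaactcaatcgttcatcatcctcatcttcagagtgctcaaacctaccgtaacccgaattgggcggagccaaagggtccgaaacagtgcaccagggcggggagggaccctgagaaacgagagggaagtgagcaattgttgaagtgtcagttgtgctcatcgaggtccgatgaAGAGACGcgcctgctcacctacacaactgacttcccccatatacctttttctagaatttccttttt
hlh-1 intron: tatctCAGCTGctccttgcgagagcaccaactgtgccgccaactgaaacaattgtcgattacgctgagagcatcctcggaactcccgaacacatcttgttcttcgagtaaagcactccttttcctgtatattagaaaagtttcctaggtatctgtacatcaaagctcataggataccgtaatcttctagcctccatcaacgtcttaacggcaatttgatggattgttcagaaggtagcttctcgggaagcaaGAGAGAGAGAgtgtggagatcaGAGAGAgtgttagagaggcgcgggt

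The terms behind the values are these. A candidate is an entry of a list called by the authors on the pooled replicates (30000 entries) or on replicate 1 (26922) or replicate 2 (25562), and a summit is its highest point. The signal is the value of the authors' peak caller, without a stated unit, and it is compared below within a list and not between lists. IDR peaks are the 2563 entries that the authors kept by the irreproducible discovery rate, and they were the 2563 pooled candidates of highest signal, from 60.5 upwards with a median of 94.2. The files give no read counts, so the depth of the libraries is unknown and a single summit has no error. The promoter that drove the tagged protein is active in body wall muscle. Whole animals were used, however, and the lists themselves do not show in which cells a summit arose. Summits of different lists were called matched within 100 bp.

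**Figure D1:**
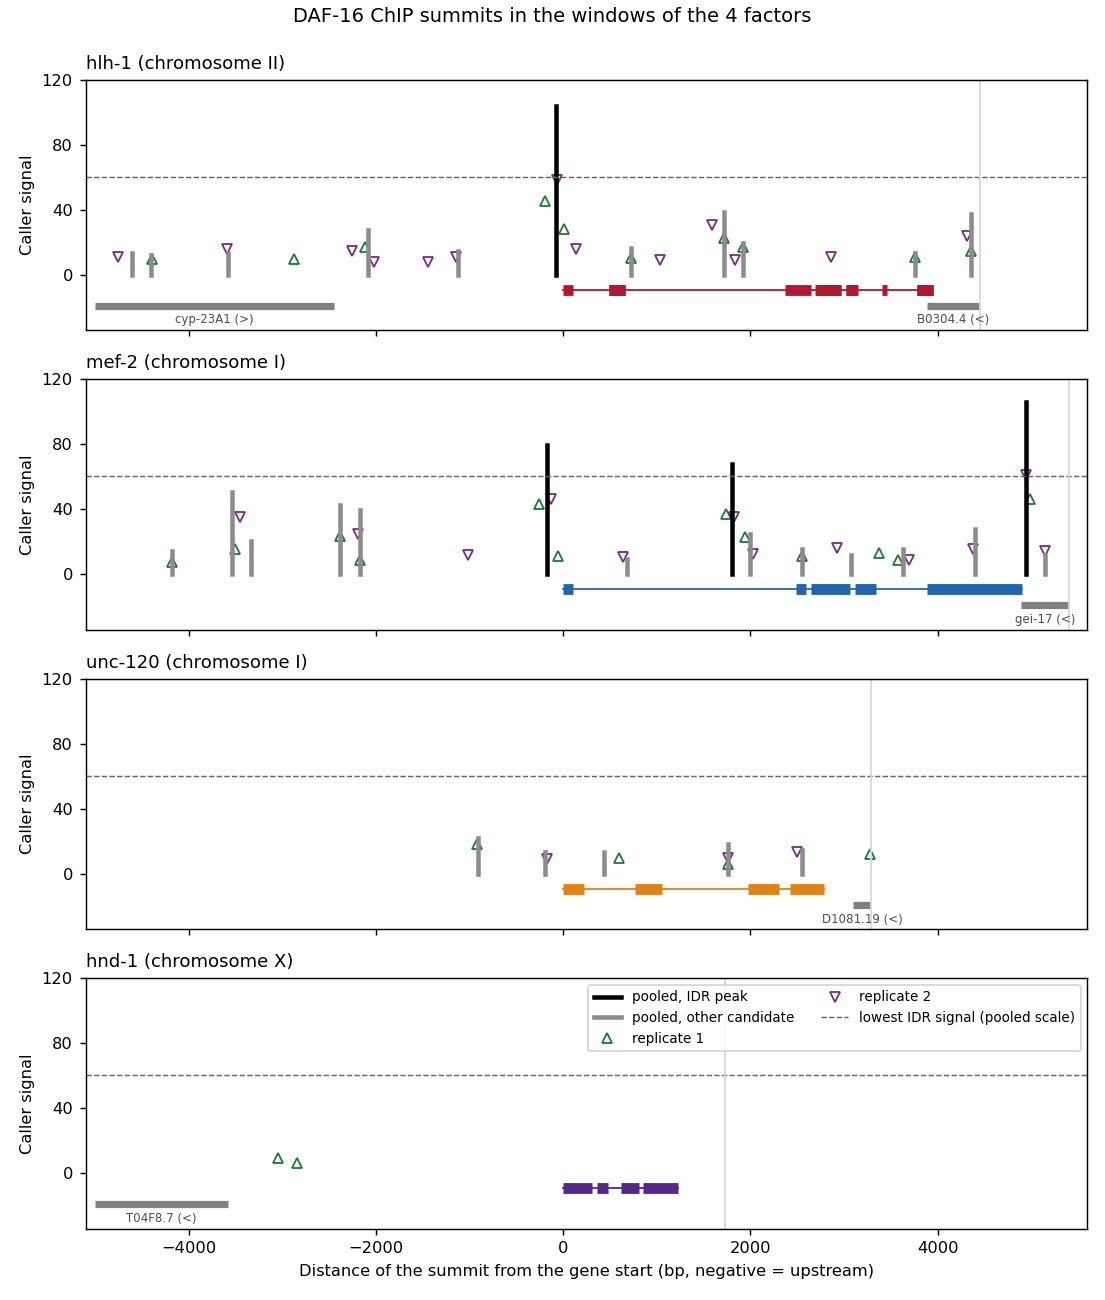
DAF-16 summits from 5000 bp upstream of each gene to 500 bp past its end (light vertical line), by distance from the gene start in bp and caller signal. Bars are pooled candidates (black for IDR peaks), triangles are summits of replicate 1 (up) and replicate 2 (down), the dashed line is the lowest IDR signal (60.5), boxes are exons and grey bars are neighbouring genes with their strand. hlh-1 has 1 IDR peak at its most upstream start and mef-2 has 3 along the gene. unc-120 has 5 low candidates, and hnd-1 only 2 summits, both of replicate 1.

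hlh-1 (WBGene00001948) carried 1 IDR peak, directly at the most upstream of its 4 annotated starts. Its summit, at II:4518501, lay 73 bp upstream of the annotated gene start in intergenic sequence, with a pooled signal of 104 (rank 1074 of 30000). The annotated gene runs from 4518574 to 4522528 on the plus strand of chromosome II, and no other gene start was nearer to the summit. The other annotated starts of hlh-1 lay 489 to 493 bp downstream of the gene start, in transcripts that lack the first exon. In replicate 1 the matched summit had a signal of 28.3 (rank 2930) and lay 80 bp away, 7 bp downstream of the gene start. A stronger summit of replicate 1, of signal 45.6 (rank 1349), lay 195 bp upstream of the start and 122 bp from the pooled summit. In replicate 2 the matched summit lay 3 bp away with a signal of 58.2 (rank 1007). Both replicates thus held a high-ranked summit at the promoter, but replicate 1 had it as a pair on either side of the pooled position.

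The hlh-1 window held 11 pooled candidates, of which 4 were matched in both replicates. The strongest after the promoter lay 1716 bp into the gene, at II:4520290 in an intron of 1710 bp (the first in most annotated transcripts), with a pooled signal of 38.5 (rank 4621). Replicate 1 had it 3 bp away with a signal of 22.4 (rank 4082), and the nearest strong summit of replicate 2, of signal 30.6 (rank 2918), lay more than 100 bp away and did not count as matched. A candidate 403 bp past the gene end (II:4522931, signal 37.3, rank 4820) was matched in both replicates, with signals of 14.6 and 23.9. That position is a coding exon of the neighbouring gene B0304.4, 291 bp from the start of that gene. The fourth by signal lay 2083 bp upstream in intergenic sequence (27.7, rank 7101) and had 17.1 in replicate 1 and 8.26 in replicate 2. Below these the hlh-1 candidates had pooled signals from 12.0 to 19.6. Those 4602, 4403 and 3573 bp upstream lay inside the neighbouring gene cyp-23A1.

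mef-2 (WBGene00003182) had the most DAF-16 summits of the 4 genes, with 3 IDR peaks and 15 pooled candidates. The gene is annotated at I:9095957-9100862 on the plus strand. The promoter summit, at I:9095782, lay 175 bp upstream of the start in intergenic sequence and had a pooled signal of 79.8 (rank 1699). The replicates placed it at ranks 1494 and 1485, with signals of 43.2 in replicate 1 and 46.5 in replicate 2. The second summit lay 1799 bp into the gene, at I:9097756 in the 2377 bp first intron, with a pooled signal of 68.2 (rank 2158). Its matched summits had signals of 37.0 in replicate 1 (rank 1952) and 35.3 in replicate 2 (rank 2339). The annotated start nearest this summit was that of the ncRNA gene W10D5.4, at 1398 bp. The promoter summit had nearly the same rank in both replicates, but those replicate summits lay 128 bp apart, on either side of the pooled position. Replicate 1 had a further summit 50 bp upstream of the start, of signal 11.5 (rank 10924). The intron summit ranked lower in replicate 2. The pooled signals of the promoter and intron summits were both below the IDR median of 94.2.

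The strongest mef-2 summit was at the other end of the gene. It lay at I:9100904, 42 bp past the annotated end, with a pooled signal of 106 (rank 1049), a signal of 46.4 in replicate 1 (rank 1314) and one of 61.3 in replicate 2 (rank 900). The position is in the 3' UTR of gei-17, a gene on the opposite strand whose end overlaps that of mef-2 by 20 bp, and 7236 bp from the start of gei-17. The nearest start of a protein-coding gene was that of mef-2 itself, 4947 bp away, with the ncRNA gene W10D5.4 starting nearer, at 1750 bp. The summit cannot be assigned to either of these convergent genes, and mef-2 kept 2 IDR peaks when the window ended at the gene end.

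Upstream of mef-2 lay a run of candidates below the IDR list. The strongest non-IDR candidate at any of the 4 genes was 3540 bp upstream (pooled signal 50.7, rank 3262), below the lowest IDR signal of 60.5. It had 15.9 in replicate 1 (rank 6769) and 35.3 in replicate 2 (rank 2336), so that replicate 2 ranked it far higher. Candidates 2377 and 2169 bp upstream had pooled signals of 42.9 and 39.7. The first was matched in replicate 1 alone, with 23.5, and the second in both, with 9.06 and 24.8. The strongest summit of replicate 2 within 200 bp of either position was the same one, of signal 24.8 (rank 3983). Of the 15 pooled candidates of mef-2, 7 were matched in both replicates.

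unc-120 (WBGene00006844) had no IDR peak. Its 5 pooled candidates (gene at I:8460225-8463015, plus strand) had signals from 13.7 to 22.2, with a median of 14.6 below the median of 16.7 over all pooled candidates. The strongest, 908 bp upstream at I:8459317, ranked 9851, had a signal of 18.5 in replicate 1 (rank 5401) and no matched summit in replicate 2. It lay inside D1081.15, an annotated ncRNA gene, 14 bp from that gene's start. The candidate nearest the start, 190 bp upstream, had a pooled signal of 13.8 (rank 19467) and was matched in replicate 2 alone, with 8.95 (rank 20469). The single candidate matched in both replicates lay 1766 bp into the gene in its second intron (18.2, rank 13141), with 5.91 in replicate 1 (rank 26623) and 10.1 in replicate 2 (rank 17188). No summit at unc-120 ranked above 5401 in either replicate.

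hnd-1 (WBGene00001981) had no pooled candidate in its window. The gene, at X:11684561-11685788 on the plus strand, is the shortest of the 4 and its window of 6728 bp held only 2 summits of replicate 1. These lay 3042 and 2837 bp upstream with signals of 9.29 (rank 15220) and 6.19 (rank 25387), and replicate 2 had none. The lists end at 9.22 in the pooled list, 5.84 in replicate 1 and 7.54 in replicate 2. Weaker signal at hnd-1 would therefore not be listed, and binding below these values was not detectable.

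Set against all genes, 2 of the 4 factors had an IDR summit in the window, while 17.5% of the nuclear protein-coding genes did (3489 of 19973, Wilson 95% interval 16.9 to 18.0). Among the 11572 genes with a window as long as those of the members, 6728 to 10406 bp, the share was 16.2%. The same 2 factors, hlh-1 and mef-2, had an IDR summit from 1000 bp upstream to 200 bp downstream of the start, against 6.25% of all genes and 6.14% of those of similar window length. With 4 genes these counts were not tested. With the summit past its end counted, mef-2 alone had at least 3 IDR summits, as did 1.04% of all genes and 0.709% of those of similar window length. hnd-1 alone had no pooled candidate, which was common, at 36.7% of all genes and 39.4% of those of similar window length.

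The strongest pooled signals of mef-2 (106) and hlh-1 (104) did not stand far above other genes. They exceeded the strongest signal of 87.0% and 86.7% of the 12639 genes with a pooled candidate in the window, whose median was 30.2. The mef-2 value is that of the summit past the gene end, which could not be assigned to mef-2 or gei-17, and the mef-2 promoter summit had 79.8. The unc-120 value of 22.2 exceeded 36.1% of them. Among the 7017 such genes of similar window length the shares were 87.6% for mef-2, 87.3% for hlh-1 and 37.4% for unc-120. In density of candidates, mef-2 had 1.44 pooled candidates per kb, hlh-1 1.16, unc-120 0.603 and hnd-1 none, against 0.315 per kb over the windows of all protein-coding genes. As many candidates as at mef-2 were found at 0.0605% of the genes of similar window length, as many as at hlh-1 at 1.14% and as many as at unc-120 at 20.6%. The mef-2 window is the longest of that range, which favours it in such a count. At all genes alike, candidates inside neighbouring genes were counted, as those of hlh-1 in cyp-23A1 and B0304.4. Entries whose spans overlap were counted too, so these are not numbers of separate binding sites.

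**Figure D2:**
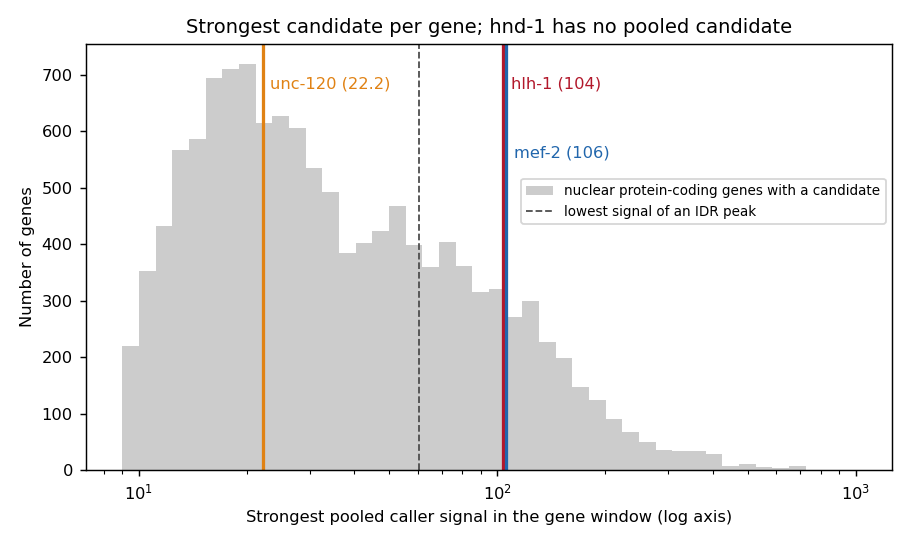
Strongest pooled caller signal in the window of each nuclear protein-coding gene with a candidate, on a log axis, with the number of genes per bin. Coloured lines mark hlh-1 (104), mef-2 (106) and unc-120 (22.2), and the dashed line is the lowest signal of an IDR peak (60.5); hlh-1 and mef-2 lie to its right and unc-120 to its left.

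All 4 IDR summits of hlh-1 and mef-2 had a match in both replicates, as had 94.9% of all IDR peaks. Since IDR peaks are chosen from the same replicates pooled, this share is partly built in. Of the 31 pooled candidates at the 4 genes 12 were matched in both replicates, against 28.6% of all pooled candidates. Within 50 bp 1 of the 4 IDR summits was matched in both, the one past the end of mef-2. No share of all IDR peaks at this distance is given here, so that count has no reference. At the other IDR summits replicate 1 lay 57 to 82 bp from the pooled position. None of the 4 IDR peaks held a sequence of 31 bases that occurs again in the genome, and 84.9% of all IDR peaks likewise held none. By the signals of their strongest IDR summit in replicates 1 and 2, the genes most like hlh-1 among 3390 were ife-2 and R04A9.3, which share a summit (27.9 and 57.2, a log10 distance of 0.011), and glo-4 (29.4 and 60.1, 0.021). Those most like mef-2 were gei-17, which has the same summit, and B0334.13 and twk-5, which share a summit (46.7 and 61.4, 0.003). This likeness rests on 2 values per gene. It also depends on the match rule, since hlh-1 enters with 28.3 in replicate 1. The stronger replicate 1 summit of 45.6, 122 bp from the pooled one, was not used.

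**Figure D3:**
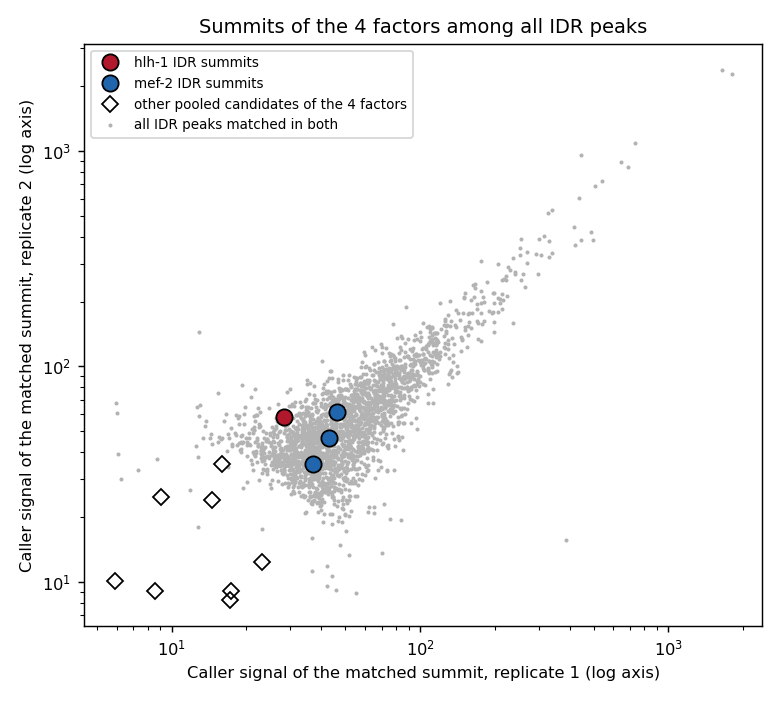
Caller signal of the matched summit in replicate 1 (x) and replicate 2 (y), both on log axes, for the IDR summits of hlh-1 and mef-2 (filled), the 8 other pooled candidates of the 4 genes matched in both replicates (open diamonds) and all IDR peaks matched in both (grey). The 4 filled points lie in the main cloud, with hlh-1 at 28.3 and 58.2 to the left of its centre, and the diamonds at its lower left edge or below.

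None of the 4 IDR summits had a DAF-16 binding element (TGTTTAC, on either strand, within 100 bp), which 8.93% of all IDR peaks and 3.0% of all pooled candidates had. The element was also absent from the other 27 pooled candidates at these genes. The DAF-16 associated element CTTATCA was likewise at none of the 31 candidates, and at 3.75% of IDR peaks and 3.40% of pooled candidates. The E-box CAGCTG, a site of HLH-1, was at none of the 4 IDR summits and at 2 of the 31 candidates, against 10.4% of IDR peaks and 6.23% of pooled candidates, and the E-box CACCTG at none of the 4 and at 3 of the 31, against 7.69% and 6.56%. The sites of the other factors were rare everywhere: the MEF2 site was at 1 of the 31 candidates and 0.490% of all pooled candidates, and the CArG box, the site of serum response factors, at 1 of the 31 and 0.943%. A window without a match says only that these letters are not in it.

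Other sequences did occur at the IDR summits. GAGAGA lay at the mef-2 promoter summit in 3 overlapping copies and at the mef-2 intron summit in 6 copies, some of them overlapping. It was absent within 100 bp of the hlh-1 promoter summit and of the summit past the end of mef-2. Of all IDR peaks 40.9% had it, and 18.3% of pooled candidates. The candidate 3540 bp upstream of mef-2 had 14 copies, overlaps included, the most at any of the 4 genes' named summits. GATA sites, with the letters AGATAA in one form, TGATAA in another, and AGATAG as well as TGATAG counted too, lay at the same 2 mef-2 summits. They were at 39.1% of IDR peaks and at nearly as many pooled candidates, 34.7%. AGAGACG was searched because earlier results of these data were known. It lay at the hlh-1 promoter summit, within the exon at the most upstream start, and at the mef-2 intron summit. Of all IDR peaks 13.1% had it, against 4.35% of pooled candidates. Within 100 bp the hlh-1 promoter summit had a GC content of 54.2%, above the median of 42.8% over IDR peaks, and the mef-2 summits had 36.8%, 44.3% and 31.3% from the promoter to the gene end.

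The 28 other regulators of mesoderm and muscle that were listed gave a mixed picture. An IDR summit lay in the window of 6 of them (21.4%), beside 17.5% of all genes. Their windows were longer, with a median of 9907 bp against 7527 bp over all genes, so these shares are not matched for length. The longest windows were those of sem-2 (20786 bp), hda-4 (20709 bp) and fozi-1 (20396 bp). Neither sem-2 nor fozi-1 had a pooled candidate, while hda-4 had an IDR summit, as had sma-9 (19192 bp) and kin-29 (14017 bp). In the promoter window 1 of the 28 had an IDR summit, kin-29, beside 6.25% of all genes. The median density over the list was 0.252 pooled candidates per kb, beside a median of 0.199 over all genes. In the list 9 of the 28 had no pooled candidate, beside 36.7% of all genes. Among the 12 genes of embryonic mesoderm and its lineage inputs, sys-1, a beta-catenin, was the only one with an IDR summit. The stronger of its 2 (pooled signal 181) lay 4905 bp from the sys-1 start but 227 bp from that of eif-3.C. No pooled candidate lay at 5 of the 12, beside the same 36.7% of all genes. They were med-1, med-2, tbx-35, tbx-8 and vab-7, named after their values were seen. skn-1, a regulator of mesendoderm and stress defence named here after its values were seen, had 21 pooled candidates (1.41 per kb), none of them an IDR peak, with a strongest signal of 54.2.

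The 2 modifiers of MEF-2 in the list both had strong summits. kin-29, a salt-inducible kinase homologue that acts on HDA-4, had its summit 266 bp upstream of the start in intergenic sequence, with a pooled signal of 144 (rank 529) and 68.2 and 72.3 in replicates 1 and 2. hda-4, a class II histone deacetylase that represses with MEF-2, had one 2605 bp upstream, with 145 (rank 520) and 67.7 and 84.8. Both exceeded the mef-2 promoter summit, of 79.8, and the summit past the end of mef-2, of 106. hlh-2, the E-protein partner of worm bHLH factors, had no pooled candidate. Of the 13 genes of postembryonic mesoderm 3 had an IDR summit. sma-9, a Schnurri homologue, had 5, the strongest in an intron (390, rank 59, with 210 and 197 in the replicates). mab-5, a Hox gene, had one in an intron (72.6, rank 1981, nearest to the start of bath-15), and ceh-24, an NK-2 homeobox gene, one 4538 bp upstream (60.8, rank 2549, nearest to the start of swan-1), just inside the IDR list.

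**Figure D4:**
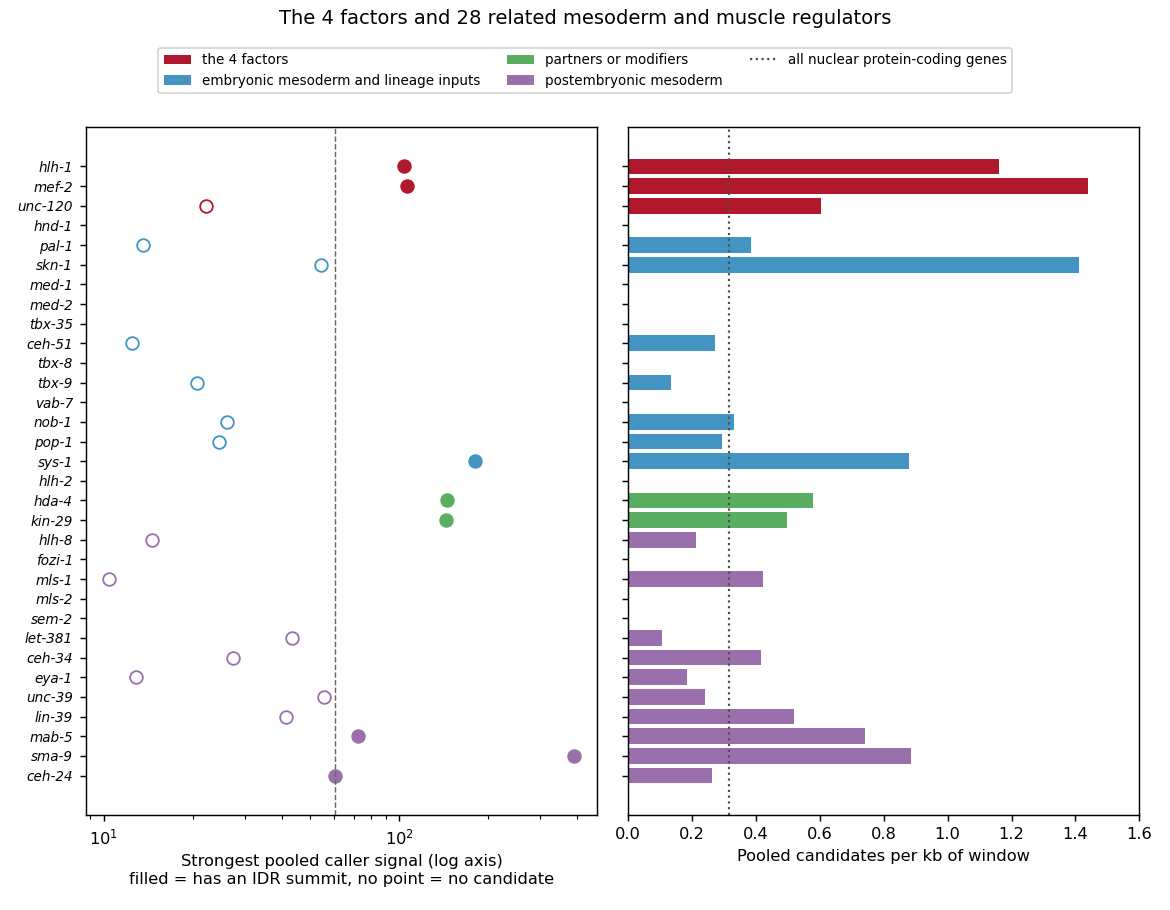
Left, strongest pooled caller signal in the window of each of the 4 factors and 28 related regulators on a log axis (filled for genes with an IDR summit, no point for genes without a pooled candidate), with the lowest IDR signal dashed. Right, pooled candidates per kb of window, with the value over all nuclear protein-coding genes (0.315) dotted; mef-2 (1.44), skn-1 (1.41) and hlh-1 (1.16) are the densest.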

How the data were processed

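DAF-16 ChIP-seq of 2 biological replicates was analysed from the peak lists that the authors deposited for the genome build ce11. Per the deposited file lists, candidates came from each replicate and from both together, with a control library, and were then thresholded on IDR. No aligner, peak caller or IDR threshold is named in the labels or file lists. The deposited signal per peak, from the authors' caller, has no stated scale and was used within a list only. From the ce10 lists only the number of IDR peaks was taken, for 1 alternative.

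Summits were assigned to genes of Ensembl release 115 (WBcel235). The 4 genes, the 28 regulators and the motifs were chosen with earlier results of these data known. Motif matches on either strand were counted up to 100 bp from a summit, overlaps included. The MEF2 site was CTA, 4 of A or T, TAG, and the CArG box CC, 6 of A or T, GG. Named were the 4 genes with their IDR summits and the 3 strongest other candidates of each, listed regulators with an IDR summit, the 3 genes nearest in replicate signals, and the genes with the nearest starts; other names followed the values. No test was run, because the lists hold 1 group without counts. Window assignment, matching and motif search were tested on simulated data. Python 3.11.15, pandas 2.3.3, statsmodels 0.14.6 (Wilson intervals) and matplotlib 3.10.9 were used.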

Additional observations from a re-analysis of the deposited data

How the results depend on the processing

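Of 73 changes of setting, 63 left a value close to the main one and 10 did not. Close meant within 1.5 times for counts and shares, and within 1 SD of the 2 replicates' ranks for ranks. The ranks judged were those same replicate ranks, so the limit was wider where the replicates differed more. Under each window and each peak set tried, hlh-1 and mef-2 were the members with an IDR summit. With IDR peaks of at least the median signal, the members had 2 IDR summits in place of 4, 1 member had one in the promoter window (hlh-1) and the share of all genes fell to 9.93%. With each summit given to the nearest protein-coding start alone, that share was 9.0% and both members kept their summits. Of the pooled candidates 12 were matched in both replicates. Within 50 bp, 1 of the 4 IDR summits was. Over all 31 candidates, CAGCTG lay at 2 and GAGAGA at 9. With 1 replicate left out, the rank of the strongest summit ran from 1007 to 1349 at hlh-1, from 900 to 1314 at mef-2 and from 5401 to 10888 at unc-120. The strongest candidate of unc-120 was at another position in replicate 2. At hlh-1 the rank of 1349 was that of a replicate 1 summit 122 bp from the pooled one. The replicate 1 summit matched to the pooled one ranked 2930. As many pooled candidates as the ce10 list has peaks, a setting added after the data were seen, gave 4 summits at mef-2. Stopping the window at the next gene did not clip genes that overlap a member, such as gei-17 and B0304.4. No paired analysis was possible because the samples form 1 group and no result comes from a test. The files hold no depth, so weak summits were read by rank alone.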
